A study of Mus musculus with 10 samples.

Results

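The genes described here are 32 genes induced by interferons, measured in RNA of the mouse terminal ileum after weight-loss surgery. They were taken by symbol from the 36401 Ensembl genes of the deposited tables, with the identifier of highest mean count where a symbol had several. The set holds 19 genes of the gamma type, which are the classical targets of interferon gamma, and 13 genes of the type I class, which are those of interferon alpha and beta. All 32 passed the filter on low counts.

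The animals were male C57Bl6 mice made obese on a diet with 60% of its energy from fat, given for 6 weeks before an operation at a labelled age of 8 weeks. The 5 VSG mice had a vertical sleeve gastrectomy, in which most of the stomach is removed along its greater curve, and then ate freely. The 5 SPF mice had a sham operation and received only as much food as the VSG mice ate, so surgery and feeding schedule differed together and cannot be told apart. On the 4 days around the operation all mice were given a liquid diet. About 8 weeks later the fasted mice received 0.5 mL of a liquid diet into the stomach, and the end of the ileum was taken 1 hour afterwards for sequencing of its RNA.

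Interferons signal through receptors bound to Janus kinases. Interferon gamma acts on its target genes at gamma-activated sites (GAS), while type I and type III interferons lead to the ISGF3 complex, which holds Stat2 and Irf9 and binds interferon-stimulated response elements (ISRE). In the gut, interferon gamma comes mostly from T cells and natural killer cells, and the genes it induces in epithelium and macrophages act in defence against intracellular microbes and in antigen presentation.

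Promoters are shown for some of the genes described below, each holding an ISRE, a GAS or both. RefSeq promoter windows of build GRCm38.p6, 250 bases before to 50 after a start site, were matched for 25 of the 32 genes; the count tables use mm9, and no coordinate was carried between the builds. Both strands were searched for the ISRE core, TTTC, any 2 bases and TTTC again, and for the GAS letters TTCNNNGAA, and matches may overlap. Each sequence below is the 130 bases before the start site, read 5′ to 3′ on the gene's strand, with every match in capitals. They lie at chr11:58199426-58199555 (Igtp, plus strand), chr11:58214847-58214976 (Irgm2, plus), chr3:142620533-142620662 (Gbp2, plus), chr3:142530206-142530335 (Gbp7, plus), chr11:48871421-48871550 (Irgm1, minus), chr11:53769884-53770013 (Irf1, plus), chr4:156200819-156200948 (Isg15, minus) and chr19:34640759-34640888 (Ifit1, plus).
Igtp: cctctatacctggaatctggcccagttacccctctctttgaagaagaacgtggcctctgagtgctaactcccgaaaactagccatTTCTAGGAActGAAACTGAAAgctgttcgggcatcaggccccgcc
Irgm2: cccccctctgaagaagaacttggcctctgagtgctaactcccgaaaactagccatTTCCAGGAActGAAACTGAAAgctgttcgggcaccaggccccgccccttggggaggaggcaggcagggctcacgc
Gbp2: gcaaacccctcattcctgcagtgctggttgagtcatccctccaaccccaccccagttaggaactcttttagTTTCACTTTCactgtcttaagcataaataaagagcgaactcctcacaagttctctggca
Gbp7: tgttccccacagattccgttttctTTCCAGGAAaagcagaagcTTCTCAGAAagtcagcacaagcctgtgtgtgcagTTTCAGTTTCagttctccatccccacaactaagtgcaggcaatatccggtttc
Irgm1: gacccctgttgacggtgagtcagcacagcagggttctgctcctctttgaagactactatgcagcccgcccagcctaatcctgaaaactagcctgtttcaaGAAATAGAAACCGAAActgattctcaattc
Irf1: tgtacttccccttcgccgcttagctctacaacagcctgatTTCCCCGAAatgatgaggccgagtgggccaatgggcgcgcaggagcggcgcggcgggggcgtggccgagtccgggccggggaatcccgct
Isg15: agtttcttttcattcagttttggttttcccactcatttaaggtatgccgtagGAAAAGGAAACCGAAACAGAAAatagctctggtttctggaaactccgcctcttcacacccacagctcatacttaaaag
Ifit1: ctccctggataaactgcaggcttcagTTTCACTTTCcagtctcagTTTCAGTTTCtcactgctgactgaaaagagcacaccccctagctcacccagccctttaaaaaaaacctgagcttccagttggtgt

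The ISRE core was in the window of 7 of 14 matched gamma-type genes (50%) and 7 of 11 type I genes (63.6%), against 3.99% of the 27025 genes with a window. The GAS letters were in 6 of 14 gamma-type genes (42.9%) and 2 of 11 type I genes (18.2%), against 9.55% of all genes. Igtp and Irgm2 each had a GAS followed by an ISRE with 2 bases between them, at positions -45 to -25 in Igtp and -75 to -55 in Irgm2, counted from the start site. The windows of these neighbouring genes also shared a run of 61 identical bases. In Gbp7, 2 GAS matches preceded the ISRE, and Isg15 had 3 overlapping ISRE cores between -78 and -57. Tap1 and Psmb9 are transcribed away from each other, and their windows, which share 275 bases, held neither motif. A match is a description of the letters and not a measured binding site.

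The libraries held 15364651 to 34058181 estimated reads, and the lowest estimated count of a member in a library was 8.0, for Cxcl10. Values below are CPM, counts relative to the size of the library after TMM scaling, which compare libraries for 1 gene and not genes with each other. The libraries VSG 2, SPF 2 and SPF 4 went against the ileal label. Gata4, which encodes a factor of duodenum and jejunum, was at 109 to 183 CPM in these 3 and at 1.72 to 6.28 CPM in the other 7, while the ileal bile acid binding protein gene Fabp6 stood at 39.0 to 62.1 CPM in the 3 and 2558 to 6112 CPM in the 7. The members are therefore compared in all libraries and also in the 4 VSG and 3 SPF libraries with Gata4 below 20 CPM. The library nearest below that limit had 6.28 CPM and the nearest above it 109 CPM.

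In all 10 libraries, no member passed the adjusted threshold between VSG and SPF. Of the 19 gamma-type genes 16 were lower in VSG, with a median log2 fold change (VSG minus SPF) of -0.30, and of the 13 type I genes 6 were lower, with a median of 0.02. Over all genes tested 58.1% were lower and the median was -0.05. edgeR's quasi-likelihood test with Benjamini-Hochberg adjustment called 0 of 15678 genes (0%) at 0.05, and 595 had an unadjusted p below 0.05. DESeq2 called 14 genes and none of the members. Without adjustment, 0 members passed lower in VSG (background 1.91%) and 1 passed higher (background 1.88%). No member had all VSG libraries below all SPF libraries (background 0.293%) or above them (background 0.255%).

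In the 7 libraries with low Gata4, all 19 gamma-type genes were lower in VSG than in SPF, at log2 fold changes from -1.76 for Igtp to -0.08 for Irf8 around a median of -1.12. The type I genes lay closer to 0: 11 of 13 were lower, with a median of -0.18. Over all 15911 genes tested in these libraries 56.8% were lower, with a median of -0.05. Unadjusted p was below 0.05, in the lower direction, for 16 gamma-type and 2 type I genes, against 3.26% of all genes, and 0 members passed in the higher direction, against 3.7%. In 12 gamma-type genes and 1 type I gene every VSG library was below every SPF library, which held for 3.79% of all genes, and in 0 members every VSG library was above, against 4.32%. After Benjamini-Hochberg adjustment edgeR's quasi-likelihood test called 0 genes (0%), with 1107 at an unadjusted p below 0.05, and the lowest adjusted p among members was 0.213, for Gbp2. DESeq2, fitted to every gene with a count in these libraries and not only to the 15911, had 1298 genes at an unadjusted p below 0.05. It called 81 genes, 4 of them members: Gbp2 (adjusted p = 6.43e-06), Igtp (0.00919), Cxcl9 (0.0268) and Irgm1 (0.0456).

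**Figure D1:**
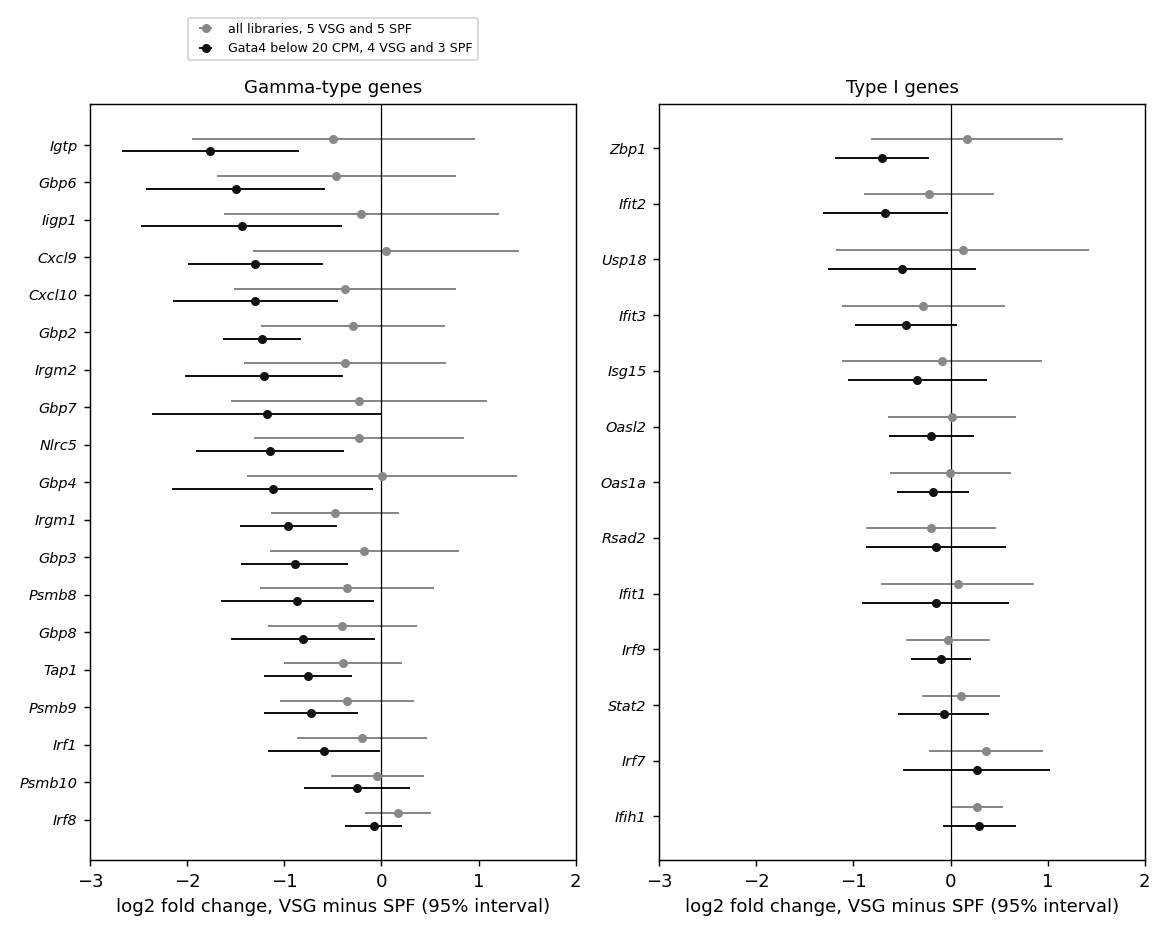
Log2 fold change of each gene, VSG minus SPF, with its 95% interval from edgeR's quasi-likelihood fit (horizontal axis), for 19 gamma-type genes on the left and 13 type I genes on the right. Grey points are the fit of all 10 libraries and black points the 7 libraries with Gata4 below 20 CPM, where the gamma-type genes lie between -1.76 and -0.08.

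The size of the difference in the gamma-type genes moved with the libraries that entered. Without VSG 2 alone, 18 gamma-type genes were lower, 12 of them at an unadjusted p below 0.05, with a median of -0.86. The shares over all genes in that refit are not given here. Without SPF 5 alone 13 were lower, with a median of -0.09, and in the low-Gata4 libraries the median without SPF 5 was -0.74. VSG 2 was the highest of the 10 libraries for 13 gamma-type genes and 6 type I genes, VSG 3 was the lowest for 12 gamma-type genes, and SPF 5 was the highest of the 7 low-Gata4 libraries for 12. Among the 3 libraries with high Gata4, VSG 2 was above both SPF 2 and SPF 4 for 19 of 19 gamma-type genes, all of which had a lower level in VSG in the other 7 libraries, and for 9 of 13 type I genes. With 1 VSG library there, no test was made, and the share over all genes was not counted. The genes were read in the same library, so these counts are not independent of each other. In bulk tissue, fewer cells of a type and less RNA per cell cannot be told apart.

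**Figure D2:**
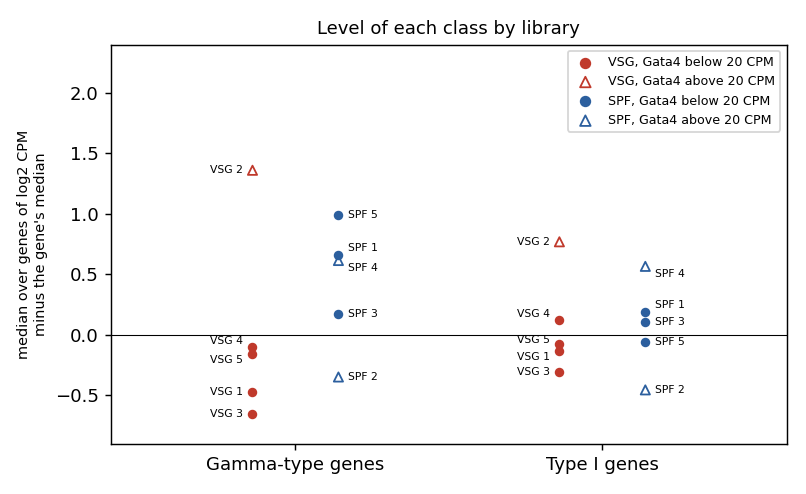
Level of each class in each library: the median over its genes of the log2 CPM minus that gene's median over the 10 libraries (vertical axis), VSG in red and SPF in blue, with open triangles for libraries with Gata4 above 20 CPM. For gamma-type genes VSG 2 stands at 1.36 and the other VSG libraries between -0.66 and -0.10, while the 3 SPF libraries with low Gata4 stand between 0.18 and 0.99.

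The guanylate-binding proteins (Gbp) and the immunity-related GTPases (Igtp, Iigp1, Irgm1, Irgm2) are GTPases that act in defence against intracellular microbes. Gbp2 stood at 8.83, 34.05, 8.24, 10.04 and 9.52 CPM in VSG 1 to 5 and at 19.3, 9.27, 19.1, 13.1 and 26.2 CPM in SPF 1 to 5. VSG 2 was the highest library, and the other VSG libraries lay within 2 CPM of each other, near SPF 2. The log2 fold change was -0.30 ± 0.43 (SE) in all libraries and -1.23 ± 0.18 with low Gata4, where the groups did not overlap (unadjusted p = 8.30e-05, adjusted p = 0.213, edgeR's quasi-likelihood test).

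Igtp, also called Irgm3, stood at 4.92, 39.9, 4.59, 8.73 and 7.80 CPM in VSG 1 to 5 and at 14.3, 4.91, 14.3, 21.6 and 38.0 CPM in SPF 1 to 5. SPF 2 lay among the low VSG libraries, and VSG 2 was above SPF 5. Its log2 fold change was -0.49 ± 0.66 (SE) in all libraries and -1.76 ± 0.40 with low Gata4, the lowest among the members (unadjusted p = 0.00190, adjusted p = 0.633, edgeR's quasi-likelihood test). Irgm1, a regulator of the other immunity-related GTPases, stood at 23.8, 36.3, 23.4, 28.4 and 25.6 CPM in VSG and at 40.4, 20.9, 38.1, 23.01 and 69.5 CPM in SPF. The 4 VSG libraries with low Gata4 lay between SPF 4 and SPF 3, apart from the 3 SPF libraries with low Gata4. Its log2 fold change was -0.48 ± 0.30 in all libraries and -0.96 ± 0.22 with low Gata4.

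Gbp8 stood at 3.44, 8.50, 3.24, 6.77 and 6.16 CPM in VSG and at 11.3, 3.30, 7.44, 8.13 and 7.18 CPM in SPF. SPF 1 was the highest library, and the low-Gata4 groups were parted by a narrow gap between VSG 4 and SPF 5. The log2 fold change was -0.40 ± 0.35 in all libraries and -0.81 ± 0.33 with low Gata4. The other 6 GTPase genes, Gbp3, Gbp4, Gbp6, Gbp7, Iigp1 and Irgm2, had log2 fold changes from -0.46 (Gbp6) to 0.01 (Gbp4) in all libraries and from -1.50 (Gbp6) to -0.89 (Gbp3) with low Gata4. Of these, Gbp3 and Gbp6 were without overlap in the low-Gata4 libraries. In Gbp4, Gbp7, Iigp1 and Irgm2 SPF 3 lay below at least 1 VSG library with low Gata4, at 2.68 CPM in Gbp7 against 3.31 to 5.93 CPM in VSG. Gbp6 has near-identical neighbours, such as Gbp10, so its reads may be split among them.

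**Figure D3:**
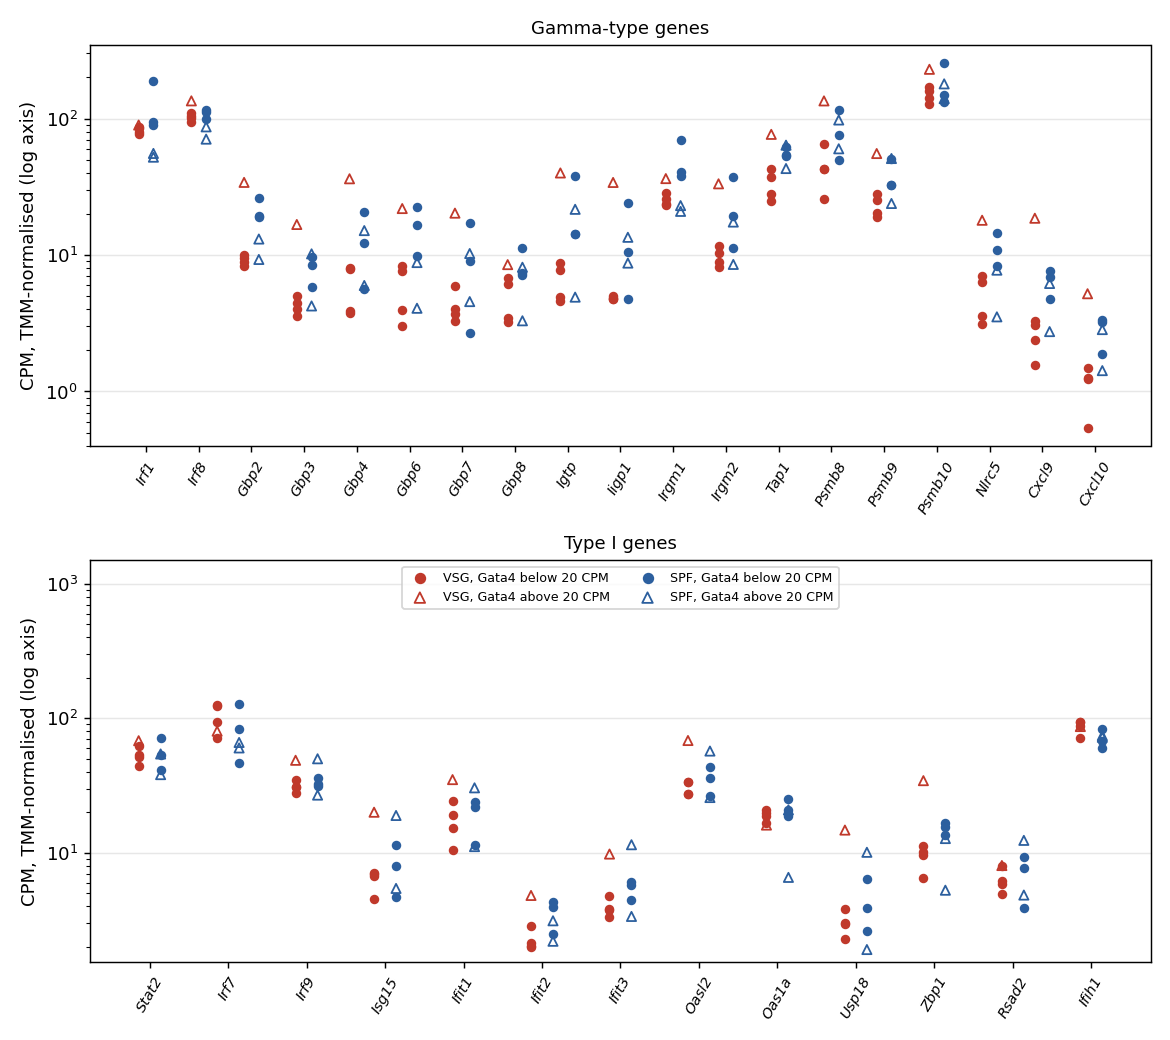
CPM of each member in every library (vertical log axis), gamma-type genes above and type I genes below, VSG in red and SPF in blue, with open triangles for the 3 libraries with Gata4 above 20 CPM. In Gbp2 the filled red points lie between 8.24 and 10.04 CPM and the filled blue points between 19.1 and 26.2 CPM.

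Genes of antigen processing belong to the same class. Tap1 encodes a subunit of the transporter that carries peptides into the endoplasmic reticulum, and Psmb8, Psmb9 and Psmb10 encode the catalytic subunits of the immunoproteasome, which cuts proteins into such peptides. Tap1 stood at 28.2, 76.6, 24.8, 37.3 and 42.8 CPM in VSG and at 53.0, 43.0, 54.4, 63.8 and 61.5 CPM in SPF. The 4 VSG libraries other than VSG 2 were below all 5 SPF libraries. The log2 fold change was -0.39 ± 0.28 (SE) in all libraries and -0.76 ± 0.20 with low Gata4 (unadjusted p = 0.00454, adjusted p = 0.633, edgeR's quasi-likelihood test).

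Psmb9, whose start site lies opposite that of Tap1, stood at 20.4, 55.4, 19.1, 25.2 and 28.1 CPM in VSG and at 32.8, 23.8, 50.3, 50.9 and 32.3 CPM in SPF. With low Gata4 the groups did not overlap, and the log2 fold change was -0.73 ± 0.21, against -0.36 ± 0.31 in all libraries. Psmb10 stood at 171, 229, 128, 141 and 159.8 CPM in VSG and at 132, 139.9, 256, 179 and 149 CPM in SPF. The groups overlapped widely, with log2 fold changes of -0.04 ± 0.22 in all libraries and -0.25 ± 0.24 with low Gata4. Psmb8 overlapped too, from 25.6 to 65.4 CPM in the VSG libraries with low Gata4 and from 49.5 to 116 CPM in the SPF libraries, with a log2 fold change of -0.86 ± 0.35 there and -0.36 ± 0.41 in all libraries.

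Nlrc5 encodes the transactivator of MHC class I genes. It stood at 3.13, 17.97, 3.58, 7.01 and 6.32 CPM in VSG and at 14.4, 3.52, 8.31, 7.74 and 10.8 CPM in SPF. VSG 2 was the highest library, and with low Gata4 the groups did not overlap, with a log2 fold change of -1.15 ± 0.33, against -0.23 ± 0.49 in all libraries.

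The class holds 2 transcription factors of the Irf family. Irf8, which acts in macrophages, dendritic cells and B cells, stood at 95.01, 135, 109, 104 and 102 CPM in VSG and at 99.8, 86.9, 115, 70.6 and 111 CPM in SPF, with overlapping groups. Its log2 fold change was 0.17 ± 0.16 in all libraries and -0.08 ± 0.13 with low Gata4. Irf1 stood between 77.5 and 89.6 CPM in the 5 VSG libraries and between 52.1 and 188 CPM in SPF, where SPF 5 was the highest. In the low-Gata4 libraries its groups did not overlap, at 77.5 to 86.1 against 90.0 to 188 CPM, with a log2 fold change of -0.59 ± 0.25, against -0.20 ± 0.31 in all libraries.

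Cxcl9 and Cxcl10 are chemokines that draw in T cells through Cxcr3. Cxcl9 stood at 3.09, 18.6, 1.55, 3.27 and 2.401 CPM in VSG and at 7.60, 2.75, 6.85, 6.18 and 4.76 CPM in SPF. VSG 2 was the highest library, and the remaining VSG libraries were at or near SPF 2. The log2 fold change was 0.05 ± 0.62 in all libraries and -1.30 ± 0.31 with low Gata4 (unadjusted p = 0.00241, adjusted p = 0.633, edgeR's quasi-likelihood test). Cxcl10 stood at 0.54 to 1.48 CPM in the VSG libraries with low Gata4 and at 1.89 to 3.33 CPM in the SPF libraries, with a log2 fold change of -1.30 ± 0.37, against -0.38 ± 0.52 in all libraries.

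Among type I genes, Ifih1, Irf7, Ifit2, Ifit3 and Zbp1 are given in full. Ifih1 encodes Mda5, a sensor of double-stranded RNA. It stood at 71.7, 86.9, 87.0, 93.6 and 93.9 CPM in VSG and at 83.6, 72.3, 68.0, 74.4 and 60.2 CPM in SPF. All VSG libraries except VSG 1 were above every SPF library, and VSG 1 lay within the SPF range. The log2 fold change was 0.27 ± 0.12 in all libraries, the single member with an unadjusted p below 0.05 (0.0447; adjusted p = 0.977, edgeR's quasi-likelihood test), and 0.30 ± 0.16 with low Gata4.

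Irf7, the master regulator of type I interferon genes, stood at 93.6, 80.3, 71.9, 125 and 124 CPM in VSG and at 83.9, 60.2, 128, 66.1 and 46.9 CPM in SPF. SPF 3 was the highest library and the groups overlapped, with log2 fold changes of 0.36 ± 0.27 in all libraries and 0.27 ± 0.33 with low Gata4. Irf7 and Ifih1 were the 2 members that were higher in VSG in the low-Gata4 libraries.

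Zbp1, a sensor of Z-form nucleic acids, stood at 9.57, 34.4, 10.1, 6.54 and 11.2 CPM in VSG and at 15.7, 5.27, 16.7, 12.8 and 13.5 CPM in SPF. VSG 2 was the highest library, and the other VSG libraries were below 4 of the 5 SPF libraries. Its log2 fold change was 0.17 ± 0.45 in all libraries and -0.71 ± 0.21 with low Gata4 (unadjusted p = 0.00974, adjusted p = 0.633, edgeR's quasi-likelihood test), where it was the 1 type I gene without overlap.

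Ifit2 and Ifit3 encode proteins that bind foreign RNA. Ifit2 stood at 1.99, 4.81, 2.03, 2.12 and 2.84 CPM in VSG and at 4.32, 2.20, 2.48, 3.12 and 3.95 CPM in SPF. The groups overlapped, since VSG 5 was above SPF 3, with log2 fold changes of -0.22 ± 0.30 in all libraries and -0.67 ± 0.28 with low Gata4. Ifit3 stood at 3.75, 9.78, 3.31, 3.84 and 4.80 CPM in VSG and at 5.75, 3.36, 6.10, 11.5 and 4.42 CPM in SPF, with log2 fold changes of -0.28 ± 0.38 and -0.46 ± 0.23. Ifit3 has a near-identical copy, Ifit3b, so its reads are uncertain.

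The other 8 type I genes overlapped between the groups in both sets of libraries. They encode the ISGF3 subunits Stat2 and Irf9, the ubiquitin-like modifier Isg15 and its protease Usp18, the antiviral proteins Ifit1 and Rsad2 (viperin), and the oligoadenylate synthetase family members Oas1a and Oasl2. Their log2 fold changes ran from -0.20 (Rsad2) to 0.12 (Usp18) in all libraries and from -0.50 (Usp18) to -0.07 (Stat2) with low Gata4. SPF 2 was the lowest of all libraries for 6 of the 13 type I genes, and for Oas1a it stood at 6.56 CPM against 16.1 to 25.2 CPM elsewhere. Oas1a has near-identical neighbours, such as Oas1g, so its reads are uncertain.

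Upstream of the members, Ifng, the gene of interferon gamma itself, was at or near 0: it stood at 0, 0.0388, 0, 0 and 0.0400 CPM in VSG and at 0.0975, 0, 0.0394, 0 and 0.104 CPM in SPF, and it did not pass the filter. Ifnb1 and Ifne were at 0 in every library. Of the 8 ligand and inducer genes that were matched, 2 were tested, Il15 and Il18, and Il18 stood at 4.16 to 8.43 CPM in the low-Gata4 SPF libraries and 7.38 to 20.8 CPM in VSG (log2 fold change 1.11 ± 0.42). In all libraries the log2 fold change of Il18 was -0.17 ± 0.80, and its highest value was 69.1 CPM in SPF 4. The 9 receptor and kinase genes differed little: in all libraries 6 were higher and 3 lower in VSG, and Jak1, Jak2 and Tyk2 had log2 fold changes of 0.17, 0.18 and 0.13. With low Gata4 8 were higher and 1 lower, at a median of 0.16. In Tyk2 every VSG library was above every SPF library there (background 4.32%). None of the 9 had an unadjusted p below 0.05 in either set of libraries.

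Inhibitors of the pathway went in both directions. Socs3, which blocks cytokine receptors of the gp130 family, stood at 97.2, 107, 110.0, 68.3 and 125 CPM in VSG and at 28.4, 82.1, 31.6, 38.3 and 52.3 CPM in SPF. One VSG library, VSG 4, was below SPF 2, and with low Gata4 the groups did not overlap. Its log2 fold change was 1.12 ± 0.29 in all libraries (unadjusted p = 0.00238, adjusted p = 0.977, edgeR's quasi-likelihood test) and 1.42 ± 0.28 with low Gata4. Socs1, the inhibitor induced by interferon gamma, overlapped between the groups and stood highest in SPF 5, at 46.8 CPM against 3.45 to 22.6 CPM elsewhere. Irf2bp2, a partner of the repressor Irf2, was lower in VSG in both sets, with a log2 fold change of -0.39 in each and no overlap.

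Another 44 interferon-induced genes were read beside the members. In all libraries 26 were lower and 18 higher in VSG, with 3 at an unadjusted p below 0.05, all higher (background 1.88%): Mx1, Parp12 and Samd9l, with log2 fold changes of 0.51, 0.47 and 0.34. With low Gata4 32 were lower and 12 higher, with 12 lower (background 3.26%) and 1 higher (background 3.7%) at an unadjusted p below 0.05, and 9 had all VSG libraries below all SPF libraries (background 3.79%). Among these 9, and chosen here once the values were known, were the GTPase genes Gm12250, Tgtp1 and Ifi47, with log2 fold changes of -1.60, -1.38 and -1.04, and Cd274, which encodes the checkpoint ligand PD-L1, at -1.17. Tgtp1 and Tgtp2 are near copies whose reads cannot be parted. Parp12 was the 1 gene of the 44 with all VSG libraries above (background 4.32%).

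The other genes of class I antigen loading lay closer to 0 than Tap1 and Psmb9. Of 13 such genes 6 were lower in VSG in all libraries and 10 with low Gata4, none at an unadjusted p below 0.05 in either set, and H2-D1, Tapbp and Psme1 had log2 fold changes of 0.18, 0.10 and -0.37 with low Gata4. The 7 MHC class II genes were all lower in the low-Gata4 libraries, at a median of -0.56 on the log2 scale and none at an unadjusted p below 0.05. Cd74, the class II invariant chain, ranged from 297 to 1443 CPM in VSG and from 456 to 1521 CPM in SPF with low Gata4. In SPF 2, a library with high Gata4, it stood at 239 CPM.

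Some markers of immune cells were also lower in VSG, and their part in the result was not tested. All 14 tested markers of T and natural killer cells were lower in VSG in both sets of libraries, and the summed level of the list of 15 ran from 25.3 to 57.5 CPM in VSG and from 46.3 to 90.8 CPM in SPF with low Gata4. Of the 14, 2 were at an unadjusted p below 0.05 there (background 3.26%). They were Itgae, an integrin of intraepithelial T cells (-0.78 ± 0.23), and Ccl5, a chemokine of cytotoxic cells (-1.04 ± 0.43). Mononuclear phagocyte markers were lower for 7 of 9 genes with low Gata4, 3 of them at an unadjusted p below 0.05 (background 3.26%). Cd14 and Cx3cr1 were higher, at 0.49 ± 0.43 and 0.15 ± 0.23. The sum of the list did not overlap, at 210.0 to 482 CPM in VSG and 651 to 814 CPM in SPF. Most of that sum was Lyz2, a lysozyme gene, at 124 to 373 CPM against 535 to 708 CPM. The sum therefore mainly follows this gene and not the list, and it is not read as a level of macrophages. Siglech, a marker of plasmacytoid dendritic cells at 0.61 to 2.05 CPM, was lower in VSG in both sets, with log2 fold changes of -0.88 and -1.19. The other markers of that list did not all follow it. In all libraries and with low Gata4, Bst2 stood at -0.24 and -0.61, Tcf4 at -0.02 and -0.06, and Ccr9 at 0.03 and -0.19.

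Other cell types varied from library to library. B cell markers summed to 15.2 to 168 CPM in the VSG libraries and 68.1 to 221 CPM in the SPF libraries with low Gata4, and 6 of 6 were lower in VSG there. All 5 plasma cell markers were higher in VSG in both sets. Epithelial markers, which include the brush border protein gene Vil1, summed to 17778 to 19688 CPM in VSG and 11431 to 23466 CPM in SPF with low Gata4. In SPF 5, the library with the highest level of the gamma-type genes among the SPF libraries, smooth muscle markers summed to 2821 CPM, against 223 to 1191 CPM in the other 6 libraries with low Gata4. No list named here had a defining marker at 0 in every library.

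**Figure D4:**
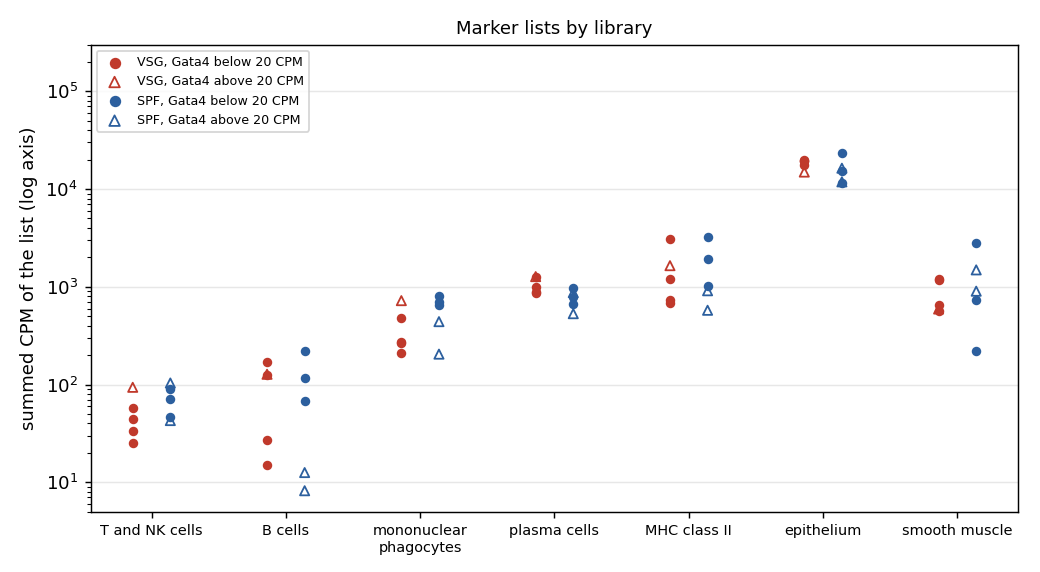
Summed CPM of 7 marker lists in every library (vertical log axis), VSG in red and SPF in blue, with open triangles for libraries with Gata4 above 20 CPM. The filled points of the mononuclear phagocyte list, most of whose sum is Lyz2, run from 210.0 to 482 CPM in VSG and from 651 to 814 CPM in SPF. Those of the other lists overlap.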

How the data were processed

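RNA of the terminal ileum was read on an Illumina HiSeq instrument with single-end reads of 50 bases from TruSeq libraries, per the labels' protocols. For each of the 10 libraries the authors deposited a table of estimated counts by Ensembl identifier, 58.85% to 64.59% of them whole numbers; the build mm9 and DESeq are named per the submitters' processing notes, and the aligner and counter are not given in the sources used here. Strand use is not given, so reads of overlapping antisense genes cannot be parted. The deposited log2 tables, derived from the same counts, were not used.

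The estimated counts were rounded and tested with edgeR 4.0.16 in R 4.3.3 (filterByExpr by group, TMM scaling, glmQLFit and glmQLFTest, Benjamini-Hochberg adjustment over all genes tested, threshold 0.05, two-sided). The fit was made on all 10 libraries and again, with its own filter and scaling, on the 7 with Gata4 below 20 CPM. Alternatives used DESeq2 1.42.0, limma 3.58.1 (voom), other scalings and filters, a replicate block, a Gata4 covariate (log2 of CPM plus 0.5) and each library left out. The code was tested on simulated data.

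The members, the lists beside them and the alternatives were chosen with earlier results of these data known. Values in every library are given for the 4 members of each class with the lowest unadjusted p in each fit and the 2 of each class with the highest mean CPM. Of each other list up to 3 tested genes with the lowest unadjusted p may be named, and Ifng, Nlrc5 and Socs1 always, except an item not reported here; any further gene was chosen after its values were seen. The labels do not say more of the replicates than that they are numbered mice, so p-values measure the spread between these libraries. Promoter sequences came from RefSeq, build GRCm38.p6.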

Additional observations from a re-analysis of the deposited data

Results flagged for a closer look

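Of 99 groups of 4 or 5 libraries checked for a library far from the others (Dixon's test, which by chance marks about 1 in 20 groups), 19 were marked. In all but 2 of these VSG 2 was the library far above the other 4 VSG libraries. For 12 gamma-type genes it stood at 34.05 CPM (Gbp2), 16.7 (Gbp3), 36.2 (Gbp4), 21.9 (Gbp6), 20.3 (Gbp7), 39.9 (Igtp), 34.01 (Iigp1), 33.2 (Irgm2), 55.4 (Psmb9), 17.97 (Nlrc5), 18.6 (Cxcl9) and 5.20 CPM (Cxcl10). For 5 type I genes it stood at 20.03 CPM (Isg15), 9.78 (Ifit3), 68.4 (Oasl2), 14.8 (Usp18) and 34.4 CPM (Zbp1). These genes were read in the same library, so the marks are not independent of each other. VSG 2 is also 1 of the 3 libraries with high Gata4, whose part in these values was not tested. Among the 4 VSG libraries with low Gata4, VSG 3 was far below the others for Isg15, at 4.53 CPM, and VSG 5 far above them for Ifit2, at 2.84 CPM.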

How the results depend on the processing

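In all libraries, the number of genes called was 0 in the main analysis and under every alternative except DESeq2 (14 genes), and no member was called under any. With low Gata4, DESeq2 called 81 genes and 4 members, and fitting without a filter called 4 genes; the cause was not tested. Restricting the comparison to low Gata4 moved the type I genes lower in VSG from 6 to 11, the gamma-type genes lower at an unadjusted p below 0.05 from 0 to 16, and the gamma-type median from -0.30 to -1.12.

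Leaving out 1 library at a time, the type I genes lower in VSG ranged from 1 (without SPF 4) to 10 (without SPF 2) in all libraries, and the gamma-type genes lower at an unadjusted p below 0.05 from 0 to 12 (without VSG 2). The shares over all genes in these refits are not given here. The gamma-type median ranged from -0.86 to -0.09 and the type I median from -0.28 to 0.17. With low Gata4 the calls ranged from 0 to 2 (without VSG 4), the gamma-type genes lower from 18 to 19, the gamma-type median from -1.28 to -0.74 and the type I median from -0.38 to -0.12.

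Same-numbered VSG and SPF libraries did not deviate together (correlations of -0.319 to 0.182, against -0.292 to 0.520 for libraries with different numbers). The labels do not say whether equal numbers mark paired mice, and so few correlations cannot decide it. With the replicate number as a block 0 genes were called in either set. The gamma-type median with the block was -0.48 in all libraries and -1.07 with low Gata4. With low Gata4, 13 gamma-type genes were at an unadjusted p below 0.05 under the block. The share over all genes in that blocked fit is not given here. There VSG 4 had no SPF library of its number, so the blocked contrast rests on the libraries numbered 1, 3 and 5.

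Some members with fold changes near 0 in all libraries changed direction. Under the replicate block Gbp4 stood at -0.52, Cxcl9 at -0.66, Oasl2 at -0.024, Oas1a at 0.11, Usp18 at -0.15 and Zbp1 at -0.10. Under limma-voom Gbp4 stood at -0.34, Cxcl9 at -0.43, Isg15 at 0.02 and Oas1a at 0.13. With a Gata4 covariate Gbp4 stood at -0.32, Cxcl9 at -0.29, Irf9 at 0.0039 and Usp18 at -0.0069. Oas1a stood at 0.015 under DESeq2 and 0.012 under its size factors, Gbp4 at -0.042 and Oasl2 at -0.030 under upper quartile scaling, and Gbp4 at -0.00098 with a filter of 1 CPM in 5 libraries. With low Gata4 the values were -0.081 (Irf8), -1.12 (Gbp4), -1.30 (Cxcl9), -0.072 (Stat2), -0.15 (Ifit1), -0.20 (Oasl2), -0.50 (Usp18) and -0.71 (Zbp1).

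With 1 library left out, ranges that crossed 0 in all libraries were -0.18 to 0.14 (Irf9), -1.01 to 0.30 (Gbp4), -1.11 to 0.27 (Cxcl9), -0.20 to 0.28 (Ifit1), -0.30 to 0.22 (Oasl2), -0.22 to 0.15 (Oas1a), -0.70 to 0.55 (Usp18), -0.45 to 0.36 (Zbp1), -0.19 to 0.15 (Psmb10), -0.61 to 0.30 (Isg15), -0.83 to 0.0044 (Nlrc5), -0.66 to 0.064 (Ifit3), -0.37 to 0.048 (Rsad2), -0.36 to 0.20 (Irf1), -1.04 to 0.18 (Gbp7), -1.35 to 0.20 (Iigp1) and -0.94 to 0.036 (Irgm2). With low Gata4 they were -0.43 to 0.038 (Ifit1), -0.45 to 0.11 (Rsad2), -0.44 to 0.10 (Psmb10), -0.24 to 0.15 (Stat2) and -0.034 to 0.67 (Irf7).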
